A study of Homo sapiens with 6 samples.

Results

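Fibronectin, encoded by FN1, and 9 integrin subunits that serve as cell-surface receptors for fibronectin and its neighbours in the matrix were followed in C42 cells with and without an shRNA against NSD2. The 10 genes were taken by symbol (FN1, ITGA2, ITGA3, ITGA5, ITGA6, ITGAV, ITGB1, ITGB3, ITGB4 and ITGB5) from the 31413 genes of the count table, and all 10 had a row. They were selected on the measured difference between the shNSD2 and shCTR libraries, in all 6 of them, so the differences of these 10 genes are a description, and counts of members past a threshold are given beside the share of all genes without being read as a test.

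C42, commonly written C4-2, is a human prostate cancer line derived from LNCaP and grown here in RPMI medium with serum. RNA was sequenced from 3 libraries with a control shRNA (shCTR 1, 2 and 4) and 3 with an shRNA against NSD2 (shNSD2 1, 2 and 3), and the title of the series ties NSD2, also named WHSC1, to immune infiltration. NSD2 is an enzyme that methylates histone H3 at lysine 36. Separate cultures, a cell pool or clone, and the number of shRNA sequences are not stated in the labels, so p-values reflect no more than library-to-library spread, and that spread may be technical.

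Fibronectin is a large secreted glycoprotein that cells assemble into fibrils, and it carries the RGD tripeptide that several integrins bind. An integrin is a pair of an alpha and a beta subunit, each a transmembrane protein with its own gene, and the alpha subunit sets much of the ligand preference. Alpha 5 with beta 1 is the main fibronectin receptor, and alpha V pairs with beta 1, beta 3, beta 5 and others to bind RGD ligands such as fibronectin and vitronectin. The label of a fibronectin receptor does not hold for every gene here: alpha 2 with beta 1 is a collagen receptor, alpha 3 with beta 1 and alpha 6 with beta 1 or beta 4 bind laminins, and alpha 6 with beta 4 anchors hemidesmosomes in basal epithelial cells.

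Total counts ran from 19412896 to 20665494 per library. Levels are in CPM, counts scaled to a common library size with the TMM factors of edgeR, and 3 counts, used as the floor, were 0.145 to 0.156 CPM, which covers counting error only. The targeted gene, NSD2, was at 219, 223 and 200.1 CPM in shCTR 1, 2 and 4 and at 85.3, 86.4 and 89.7 CPM in shNSD2 1, 2 and 3, or 40.7% of control (log2 fold change -1.30, SE 0.0870, adjusted p = 8.03e-05 by edgeR's quasi-likelihood test). Its two-sided exact permutation p was 0.1, which is the lowest value possible with 3 libraries a group. The library shCTR 4 stood apart from the other controls. On the log2 scale, over the 11218 genes that averaged 5 CPM or more, its position was 49.1% of the distance between shCTR 1 and 2 (mean) and the shNSD2 mean. The differences of the tested members are therefore given with and without it, while values of single genes of the lists include it. The prostate luminal markers were abundant, with a sum over 9 genes of 11169 to 12243 CPM in shCTR and 10504 to 10962 CPM in shNSD2.

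In GRCh38 with GENCODE 29 all 10 are protein-coding genes. FN1 (ENSG00000115414) lies on the minus strand of chromosome 2 from 215360440 to 215436172, ITGAV (ENSG00000138448) on the plus strand of chromosome 2 from 186590065 to 186680901 and ITGA6 (ENSG00000091409) on the plus strand of chromosome 2 from 172427354 to 172506282. ITGB1 (ENSG00000150093) lies on the minus strand of chromosome 10 from 32900319 to 33005792, ITGA5 (ENSG00000161638) on the minus strand of chromosome 12 from 54395261 to 54419460 and ITGB5 (ENSG00000082781) on the minus strand of chromosome 3 from 124761948 to 124901418. ITGA2 (ENSG00000164171) is on the plus strand of chromosome 5 from 52989326 to 53094779. On the plus strand of chromosome 17 are ITGA3 (ENSG00000005884) from 50055968 to 50090481, ITGB3 (ENSG00000259207) from 47253846 to 47311816 and ITGB4 (ENSG00000132470) from 75721328 to 75757818. No annotated gene overlaps FN1. Genes with a row that overlap the other tested members had at most 12 counts in any library, apart from GALK1, which lies opposite ITGB4 without shared exons and had 201 to 592 counts.

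FN1, ITGAV and ITGB1 had the lowest shNSD2 levels relative to control among the members, and the stretch before the start of each is shown so that the ligand can be set beside its receptor subunits. FN1 and ITGB1 are read on the minus strand, ITGAV on the plus strand. The bases come from RefSeq (GRCh38.p14) and run 5′ to 3′ on the strand of the gene. They cover up to 250 bases before the RefSeq start nearest the principal GENCODE 29 start, and stop before the next exon of the gene. ITGAV and ITGB1 each had 2 RefSeq starts. The ITGB1 stretch lies inside the annotated gene, whose span begins farther upstream, and its RefSeq start is 336 bases from the principal start. Capitals mark the motifs searched for on both strands.
FN1 (chr2:215436173-215436318): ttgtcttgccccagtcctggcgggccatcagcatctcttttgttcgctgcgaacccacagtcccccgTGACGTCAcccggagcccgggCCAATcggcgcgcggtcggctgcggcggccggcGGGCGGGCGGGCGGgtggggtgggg
ITGAV (chr2:186589806-186590055): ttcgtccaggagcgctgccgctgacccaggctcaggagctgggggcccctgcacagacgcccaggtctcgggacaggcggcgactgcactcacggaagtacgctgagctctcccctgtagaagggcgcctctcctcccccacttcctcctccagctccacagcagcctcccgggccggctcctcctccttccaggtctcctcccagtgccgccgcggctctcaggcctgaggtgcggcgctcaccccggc
ITGB1 (chr10:32958233-32958480): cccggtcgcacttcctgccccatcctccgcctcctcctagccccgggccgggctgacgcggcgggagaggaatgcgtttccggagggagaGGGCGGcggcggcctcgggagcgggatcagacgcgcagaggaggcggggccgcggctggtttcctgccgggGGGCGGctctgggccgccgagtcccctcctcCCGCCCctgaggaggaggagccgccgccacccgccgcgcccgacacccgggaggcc

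The motifs were the cyclic AMP response element TGACGTCA, the AP-1 motif TGANTCA, the CCAAT box and the GC box GGGCGG, none of which contains another. The stretch of FN1 holds a cyclic AMP response element that begins 183 bases before the RefSeq start, a CCAAT box 162 bases before it and 3 GC boxes that overlap in a repeat, of 6 in its whole 250 bases. Among 35116 RefSeq starts the 250 bases before the start held TGACGTCA in 1.65%, TGANTCA in 6.57%, CCAAT in 32.01% and GGGCGG in 42.64%. Of the 7 members with an entry, FN1 was the only one with TGACGTCA or CCAAT in its 250 bases, and 0 of the 7 had TGANTCA. ITGB1 held 3 GC boxes and ITGAV 0. A link between these motifs and the levels was not tested. A match describes the letters in this window and not a bound site. ITGA3, ITGB3 and ITGB4 had no entry.

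FN1 transcript was far lower after NSD2 knockdown. It stood at 8803, 6266 and 3994 CPM in shCTR 1, 2 and 4 and at 471, 973 and 821 CPM in shNSD2 1, 2 and 3. The groups did not overlap, and the lowest control library was above the highest knockdown library. Mean FN1 went from 6354 ± 2406 to 755 ± 257 CPM (SD, n = 3), a log2 fold change of -3.07 (SE 0.322) or 8.41-fold. Without shCTR 4 the fold was 9.97, and shCTR 4 lay 26.6% of the way from the other controls to the knockdown mean. Ranked per kilobase of merged exon among 31313 genes, FN1 came in at position 19, 40 and 104 in shCTR 1, 2 and 4 and at 1800, 762 and 946 in shNSD2 1, 2 and 3. The controls differed from each other as well, with a coefficient of variation of 37.9% in shCTR and 34.1% in shNSD2. In bulk RNA, fewer cells with the transcript and less of it per cell cannot be told apart.

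FN1 is also a fibroblast product, so the fibroblast markers were read beside it. Of 10 listed, 8 had a row and 3 passed the low-count filter, and their summed level was 21.6 to 24.6 CPM in shCTR and 29.9 to 34.0 CPM in shNSD2, which is opposite in direction to FN1. Most of that sum was COL1A1, while COL3A1 was lower in shNSD2 (1.20 ± 0.214 against 0.252 ± 0.0928 CPM; SD, n = 3). LUM had at most 3 counts and PDGFRA at most 1 in a library, and COL1A2 and DCN were not analysed here. Summed endothelial markers were 5.58 to 5.82 CPM in shCTR and 7.29 to 8.06 CPM in shNSD2 (3 of 4 listed with a row). Nearly all of that sum was VWF (5.61 ± 0.126 against 7.56 ± 0.441 CPM; SD, n = 3), with KDR at no more than 2 counts and PECAM1 at no more than 1. Basal markers were at 0.678 to 1.81 and 0.714 to 1.34 CPM (2 of 4) and leukocyte markers at 1.52 to 1.64 and 1.08 to 1.63 CPM (3 of 5). The part of other cell types in the FN1 difference was not tested.

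**Figure D1:**
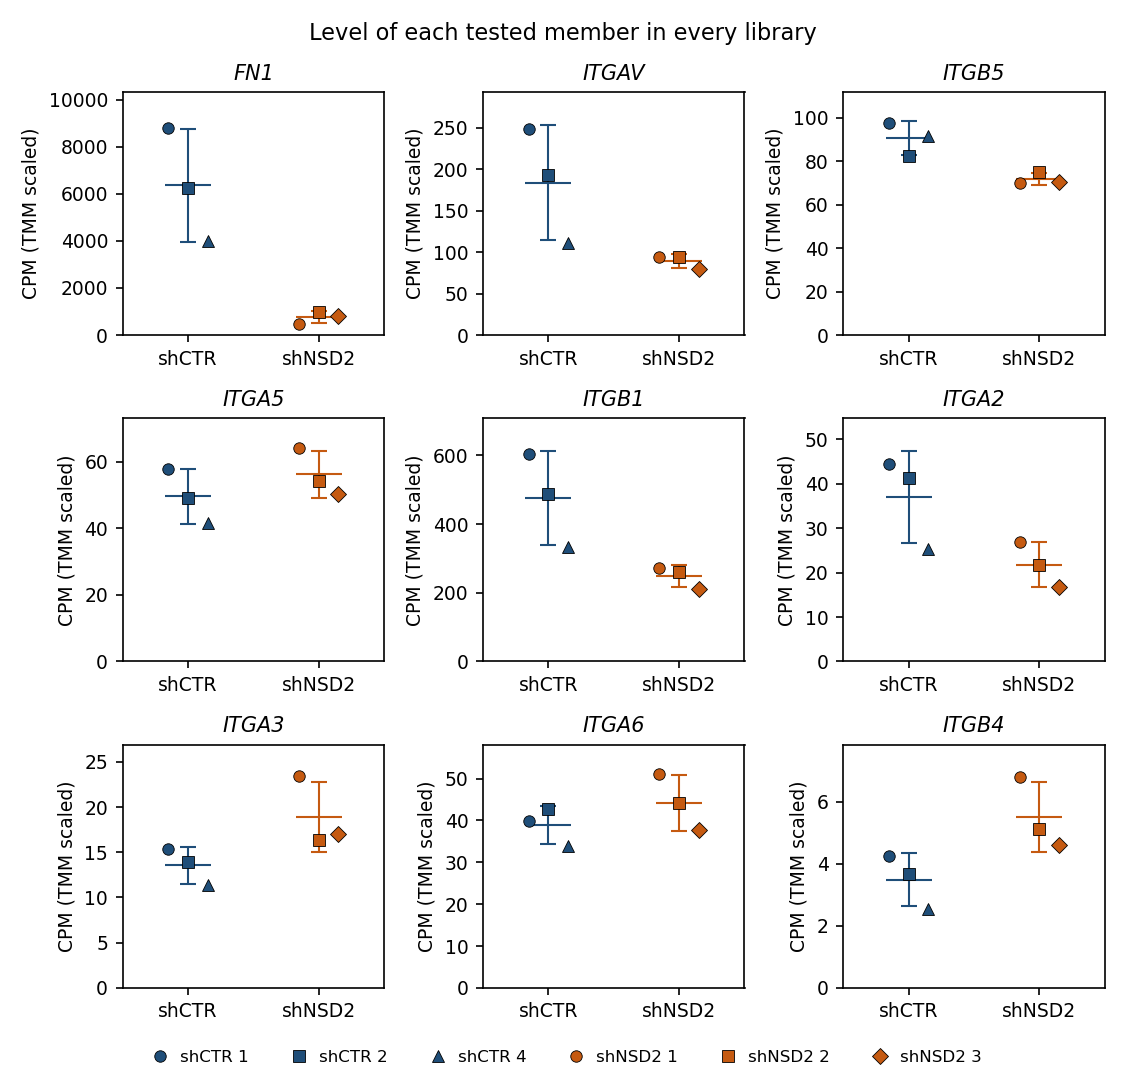
Level of the 9 tested members in every library, in TMM-scaled CPM on linear axes that start at 0; points are libraries, horizontal lines are group means and error bars are SDs over 3 libraries. FN1 spans 3994 to 8803 CPM in shCTR and 471 to 973 CPM in shNSD2, while the ITGA5 and ITGA6 groups overlapped.

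Among the RGD-binding subunits, ITGAV was lower and ITGA5 was not. ITGAV encodes alpha V, and it stood at 248, 193 and 111 CPM in shCTR 1, 2 and 4 and at 93.8, 93.9 and 79.7 CPM in shNSD2 1, 2 and 3. The groups did not overlap, but shCTR 4 was close to the knockdown libraries, 75.7% of the way to their mean. The log2 fold change of ITGAV was -1.04 (SE 0.227), from 184 ± 69.1 to 89.1 ± 8.20 CPM (SD, n = 3), and -1.31 without shCTR 4. ITGA5, the alpha subunit of the main fibronectin receptor, stood at 57.9, 49.2 and 41.6 CPM in shCTR and 64.1, 54.3 and 50.4 CPM in shNSD2. Its groups overlapped, with means of 49.6 ± 8.16 and 56.2 ± 7.04 CPM (SD, n = 3) and a log2 fold change of 0.18 (SE 0.129), or 0.07 without shCTR 4. Unlike FN1, the gene of the alpha subunit of its main receptor was not lower on average in the knockdown libraries.

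The beta partners of alpha V differed in level and in change. ITGB5, which encodes beta 5 and pairs only with alpha V, stood at 97.8, 82.6 and 91.8 CPM in shCTR and 69.8, 75.2 and 70.4 CPM in shNSD2. Its groups did not overlap, and shCTR 4 was within the range of the other controls. The difference was smaller than that of ITGAV, from 90.7 ± 7.70 to 71.8 ± 2.94 CPM (SD, n = 3), a log2 fold change of -0.34 (SE 0.0896) with all libraries and -0.33 without shCTR 4. ITGB3, which encodes beta 3, the subunit of the classic vitronectin receptor, had counts of 0, 0 and 1 in shCTR and 1, 0 and 1 in shNSD2. Both groups were under the floor of 3 counts in every library, so ITGB3 did not pass the filter and has no fold change. Its exons overlap those of AC068234.1, a gene on the same strand without a row, and how shared reads were counted is not stated.

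ITGB1 encodes beta 1, the common partner of alpha 2, 3, 5, 6 and V. It was lower in shNSD2, with 605, 488 and 333 CPM in shCTR 1, 2 and 4 and 273, 261 and 211 CPM in shNSD2 1, 2 and 3. The groups did not overlap, and shCTR 4 lay 62.1% of the way to the knockdown mean. The log2 fold change was -0.94 (SE 0.190), from 475 ± 136 to 248.5 ± 32.6 CPM (SD, n = 3), and -1.14 without shCTR 4.

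ITGA2, the collagen-binding alpha 2, was lower as well. It stood at 44.4, 41.3 and 25.2 CPM in shCTR and 26.9, 21.7 and 16.7 CPM in shNSD2. The groups overlapped through shCTR 4, which was below shNSD2 1 and lay 76.2% of the way to the knockdown mean. The log2 fold change was -0.77 (SE 0.211), from 37.0 ± 10.3 to 21.8 ± 5.10 CPM (SD, n = 3), and -0.98 without shCTR 4.

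The laminin-binding subunits went the other way or overlapped. ITGA3 (alpha 3) stood at 15.4, 13.9 and 11.4 CPM in shCTR and 23.4, 16.4 and 17.0 CPM in shNSD2, without overlap, a log2 fold change of 0.48 (SE 0.157). ITGB4 (beta 4) was low, at 4.25, 3.66 and 2.55 CPM in shCTR and 6.78, 5.13 and 4.61 CPM in shNSD2, without overlap, a log2 fold change of 0.65 (SE 0.216). Mean ITGA3 was 13.5 ± 2.04 against 18.9 ± 3.89 CPM and mean ITGB4 3.49 ± 0.863 against 5.51 ± 1.14 CPM (SD, n = 3). Here shCTR 4 was the lowest control, farther from the knockdown libraries than the others. Without it the log2 fold change was 0.37 for ITGA3 and 0.47 for ITGB4. ITGA6 (alpha 6) stood at 39.9, 42.8 and 33.9 CPM in shCTR and 51.0, 44.1 and 37.7 CPM in shNSD2, with overlap. Its means were 38.9 ± 4.57 and 44.2 ± 6.66 CPM (SD, n = 3), a log2 fold change of 0.19 (SE 0.124), or 0.10 without shCTR 4.

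Of the 9 members tested across all genes, 7 had an adjusted p under 0.05 by edgeR, 2 higher (ITGA3 and ITGB4) and 5 lower (FN1, ITGAV, ITGB1, ITGA2 and ITGB5), against 30.7% of all 17160 genes tested (15.5% higher, 15.2% lower). CPM did not overlap between the groups for 6 of the 9, 2 higher and 4 lower, against 46.8% of all genes tested (24% higher, 22.8% lower). Without shCTR 4, 1 member was called higher and 5 lower, against 46.5% of genes called. Nothing is read from these shares, since the members were proposed from this contrast. Their median log2 fold change was -0.34, beside 0.01 over all genes tested. With each library left out in turn, the log2 fold change lay between -3.32 and -2.77 for FN1, between -1.31 and -0.78 for ITGAV and between -1.14 and -0.74 for ITGB1. The count of 7 itself depended on the libraries. ITGA2 was not under the threshold without shCTR 1, shCTR 2, shNSD2 2 or shNSD2 3, ITGB5 not without any 1 of the shNSD2 libraries, ITGA3 not without shCTR 2, shNSD2 1 or shNSD2 3, and ITGB4 only with all libraries or without shCTR 1.

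**Figure D2:**
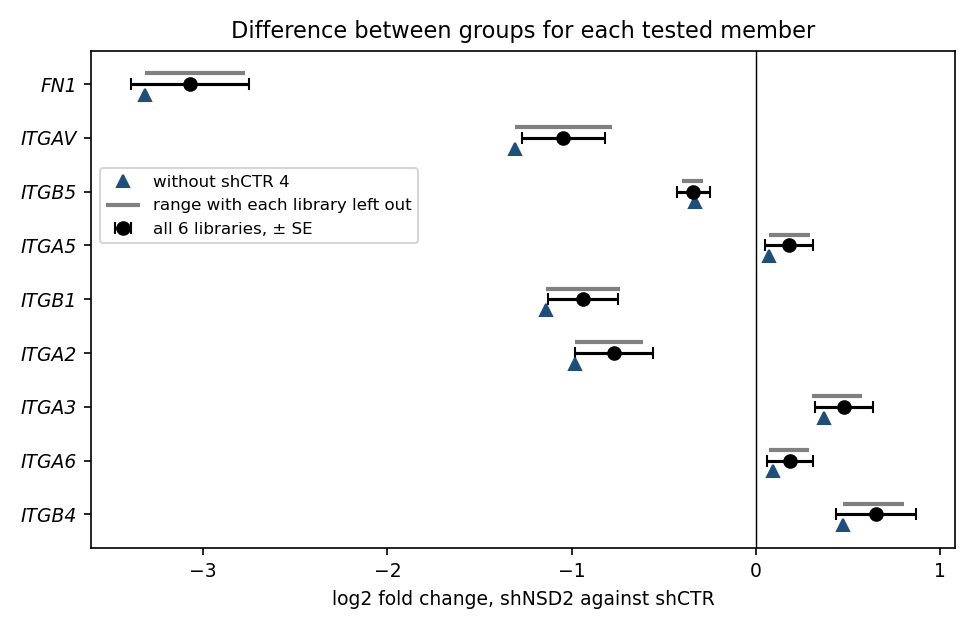
Log2 fold change of shNSD2 against shCTR for the 9 tested members; circles with bars are estimates ± SE from all 6 libraries, triangles the estimates without shCTR 4, and grey lines the range with each library left out. FN1 stands at -3.07, ITGAV, ITGB1 and ITGA2 between -1.04 and -0.77, and ITGA3 and ITGB4 above 0.

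The control libraries shared an order across these genes. In 8 of the 9 tested members shCTR 4 was the lowest of the 3 controls, ITGB5 being the exception, and in 8 of the 9 shCTR 1 was the highest, ITGA6 being the exception. For the members that were lower in shNSD2 this put shCTR 4 nearer the knockdown libraries, except ITGB5 (-9.38% of the way). For ITGA3, ITGA5, ITGA6 and ITGB4 it put shCTR 4 on the far side. Among the knockdown libraries, shNSD2 1 had the lowest FN1 of the 3 and the highest ITGA2, ITGA3, ITGA5, ITGA6, ITGB1 and ITGB4. What set these differences between libraries of a group was not tested.

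Levels can be compared between the genes only per length. Per kilobase of merged exon in shCTR, FN1 was highest at 367 ± 139 CPM per kilobase, then ITGB1 at 79.1 ± 22.7, ITGAV at 22.4 ± 8.41 and ITGB5 at 14.1 ± 1.19 (SD, n = 3). ITGA5 followed at 6.54 ± 1.08 CPM per kilobase, ITGA6 at 5.95 ± 0.699, ITGA2 at 4.68 ± 1.30, ITGA3 at 1.38 ± 0.208 and ITGB4 at 0.516 ± 0.128 (SD, n = 3). The ranges over libraries overlapped between ITGAV and ITGB5, between ITGA5 and ITGA6 and between ITGA6 and ITGA2, so these neighbours are not ordered beyond their spread. In shNSD2 the level of FN1, 43.6 ± 14.9 CPM per kilobase, overlapped that of ITGB1, 41.3 ± 5.43 (SD, n = 3). ITGB5 at 11.1 ± 0.456 and ITGAV at 10.9 ± 0.999 CPM per kilobase overlapped as well (SD, n = 3).

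The length used moved these levels. Merged exons of FN1 sum to 17315 bases, against 7898 for its principal transcript. On the shorter length FN1 was at 805 ± 305 CPM per kilobase in shCTR and 95.6 ± 32.6 in shNSD2 (SD, n = 3). ITGB1 was then at 65.7 ± 8.62 CPM per kilobase in shNSD2 (SD, n = 3). In shNSD2 1, 2 and 3 FN1 over ITGB1 was 0.827, 1.79 and 1.86 on principal transcripts, and 0.600, 1.29 and 1.35 on merged exons. The order in shCTR was the same on both lengths. In shNSD2, ITGA3 came after ITGA2 on merged exons (1.93 ± 0.396 and 2.75 ± 0.645 CPM per kilobase) and before it on principal transcripts (3.87 ± 0.795 and 2.77 ± 0.648; SD, n = 3).

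**Figure D3:**
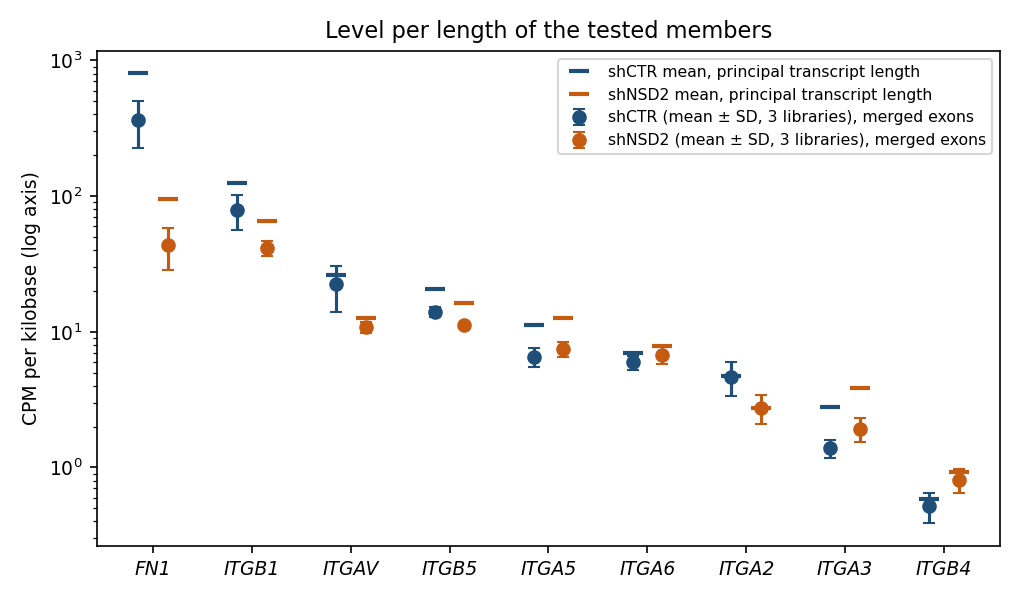
CPM per kilobase of the 9 tested members on a log axis, ordered by the mean in shCTR; circles with bars are means ± SD over 3 libraries on merged exon length, and short lines are means on the length of the principal transcript. On merged exons FN1 is above ITGB1 in shCTR (367 and 79.1), and their ranges overlap in shNSD2 (43.6 and 41.3). On principal transcripts the shNSD2 means are 95.6 and 65.7.

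Ratios between subunit transcripts show which pairs kept step within a library. These ratios of CPM per kilobase concern transcripts, not subunits paired on the surface. ITGAV over ITGB1 was 0.277 ± 0.0302 in shCTR and 0.264 ± 0.0121 in shNSD2 (SD, n = 3), with overlap, so these transcripts were lower by a similar factor. ITGA5 over ITGB1 was 0.0850 ± 0.0124 in shCTR and 0.180 ± 0.0132 in shNSD2, without overlap (SD, n = 3). ITGA6 over ITGB1 was 0.0783 ± 0.0166 and 0.164 ± 0.00834, also without overlap (SD, n = 3). Relative to their common beta partner, the alpha 5 and alpha 6 transcripts were higher in every knockdown library than in any control. By themselves ITGA5 and ITGA6 overlapped between the groups, so these separations carry the lower ITGB1 in the denominator (log2 fold change -0.94).

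The 5 alpha subunits summed over ITGB1 gave 0.508, 0.532 and 0.514 in shCTR 1, 2 and 4 and 0.737, 0.685 and 0.738 in shNSD2 1, 2 and 3. The controls were close to each other on this ratio, shCTR 4 included. ITGAV made up 53.6 ± 5.93% of the summed alpha transcript in shCTR and 36.6 ± 2.23% in shNSD2 (SD, n = 3). ITGAV over ITGB5 was 1.99, 1.83 and 0.946 in shCTR 1, 2 and 4 and 1.06, 0.981 and 0.888 in shNSD2 1, 2 and 3, so shCTR 4 sat among the knockdown libraries. ITGA3 over ITGA2 was higher in shNSD2 without overlap, at 0.305 ± 0.0510 in shCTR against 0.712 ± 0.108 (SD, n = 3). ITGA6 over ITGB4 was lower, at 11.8 ± 2.02 against 8.38 ± 0.555 (SD, n = 3), with 9.71 in shCTR 1 and 8.88 in shNSD2 2 as the nearest libraries. Changing the length multiplies a ratio between single genes by the same factor in every library, so its overlap or separation cannot change. For the summed alpha ratio and the ITGAV share, which could have changed, the groups stayed separate on principal transcript lengths.

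**Figure D4:**
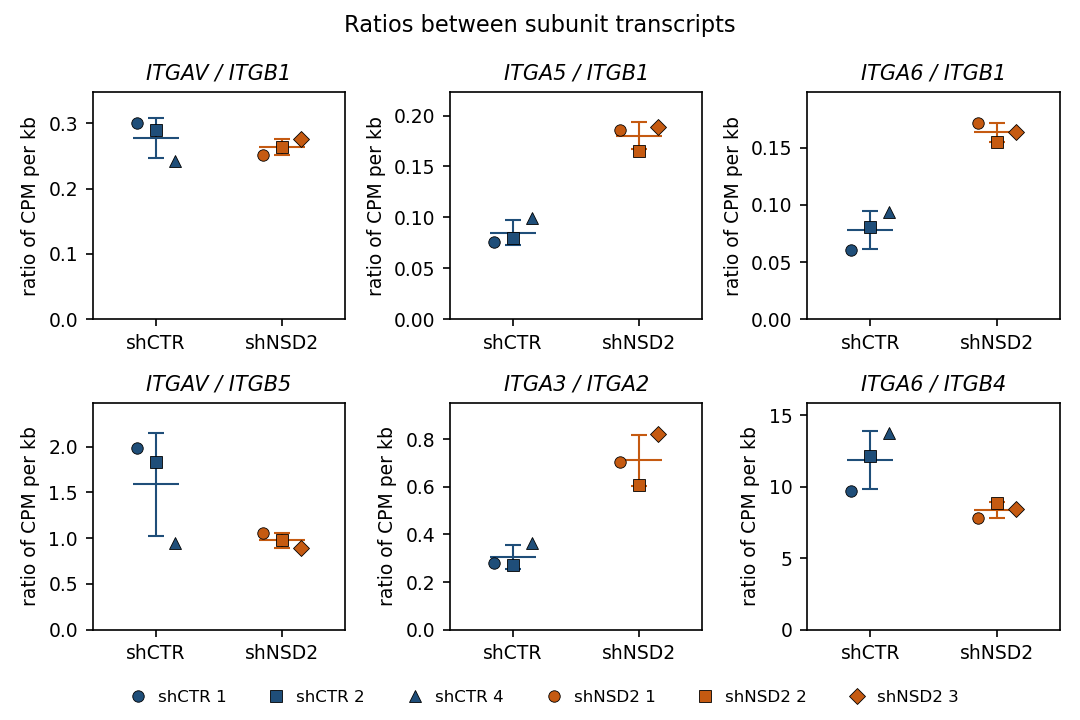
Ratios of CPM per kilobase of merged exon between subunit transcripts in each library; points are libraries, horizontal lines are group means and error bars are SDs over 3 libraries, on axes that start at 0. ITGAV over ITGB1 overlaps between the groups (0.277 and 0.264), and ITGA5 over ITGB1 does not (0.0850 and 0.180).

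The genes whose profile over the 6 libraries lay nearest to that of FN1, by the root mean square difference of centred log2 CPM among 11217 other genes of at least 5 CPM, were SEMA3C (0.0965), LPL (0.174), THBS1 (0.283), HS3ST1 (0.288), TGFB2 (0.347) and FAM135A (0.362). SEMA3C encodes a secreted semaphorin, LPL lipoprotein lipase, THBS1 the adhesive glycoprotein thrombospondin 1, HS3ST1 a heparan sulfate sulfotransferase and TGFB2 a TGF-beta ligand. SEMA3C went from 305 ± 131 to 33.3 ± 13.1 CPM (SD, n = 3). It was picked as nearest on these same values, so its likeness to FN1 in size and across the controls follows from that choice. Of the integrin members, ITGAV was nearest (1.10, position 158), followed by ITGB1 (1.15, position 219) and ITGA2 (1.26, position 507). This likeness describes 6 libraries in 2 groups and carries no test.

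Genes around the members were taken as 8 lists of 144 entries, of which 116 were tested, and 31.9% of those were called, near the 30.7% of all genes. The lists were chosen with earlier results of these data known, so the shares by list are a description. Of 17 other integrin subunits 11 were tested, and 9.09% of those were called by edgeR, against 30.7% of all genes tested. Of the 11, 1 fell and 0 rose by edgeR. Of these genes, 3 were higher at an unadjusted p under 0.05, and the DESeq2 test called 0 higher. The 1 was ITGA10, a collagen-binding alpha subunit, which went from 3.40 ± 0.682 to 1.62 ± 0.258 CPM (n = 3, SD, with adjusted p = 0.00697 by edgeR). Its values were 4.11, 2.75 and 3.34 CPM in shCTR and 1.38, 1.59 and 1.89 CPM in shNSD2. ITGB6 and ITGB8, further partners of alpha V, did not exceed 4 and 13 counts in any library and were not tested. The list median was 0.06, beside 0.01 over all genes tested, and without shCTR 4 or without shNSD2 2 there were 2 higher and 1 lower.

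Among the adaptors that join integrin tails to actin, 5 of 27 tested rose and 8 fell, with a median of -0.12. The share called was 48.1%, against 30.7% of all genes tested. KANK2, a talin-binding protein, fell from 96.7 ± 5.84 to 51.5 ± 2.59 CPM, and PARVA, which encodes alpha-parvin, from 40.3 ± 4.49 to 25.1 ± 2.70 CPM (n = 3, SD, with adjusted p = 3.26e-04 and 0.00281 by edgeR). TNS4, a tensin, rose from 13.7 ± 1.62 to 22.2 ± 2.37 CPM and ZYX, which encodes zyxin, from 49.1 ± 3.56 to 68.6 ± 1.42 CPM (n = 3, SD, with adjusted p = 0.00342 and 0.00350 by edgeR). The other 3 that rose, chosen after their values were seen, were RSU1, VASP and PDLIM7. With a library left out, between 4 and 10 adaptors fell and between 4 and 7 rose, the lowest count of falls being 4 without shNSD2 3, with 5 without shCTR 2 or shNSD2 2.

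Of 23 tested signalling genes downstream of adhesion, 2 rose and 2 fell, or 17.4% against 30.7% of all genes tested, with a median of -0.07. The Src-family kinase gene FYN rose from 2.45 ± 0.918 to 5.01 ± 1.16 CPM and the GTPase gene RAC1 from 255 ± 23.3 to 321 ± 7.10 CPM (n = 3, SD, with adjusted p = 0.0183 and 0.0273 by edgeR). PTK2B, which encodes the kinase PYK2, fell from 184 ± 15.4 to 146 ± 1.77 CPM and the kinase gene ROCK2 from 45.4 ± 10.5 to 31.5 ± 1.56 CPM (n = 3, SD, with adjusted p = 0.0192 and 0.0225 by edgeR). PTK2, the gene of focal adhesion kinase, was at 109 CPM in shCTR and 113 CPM in shNSD2 and was not called. These calls depended on the library: RAC1 and ROCK2 were called in 1 of 6 fits that left out a library (the one without shCTR 4), PTK2B in 2 (without shCTR 1 or shCTR 4) and FYN in 4 (all but those without shNSD2 1 or shNSD2 3). Without shCTR 4 the counts were 3 higher and 6 lower, with the GC content and length correction 5 higher and 1 lower, and without shNSD2 1 or shNSD2 3 they were 0 and 0 by edgeR.

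Regulators of integrin activation held 2 higher and 1 lower of 9 tested (median 0.07), or 33.3% against 30.7% of all genes tested. SHARPIN, an inhibitor of integrin activation, rose from 55.3 ± 4.05 to 76.2 ± 3.33 CPM and SIPA1, which switches off the GTPase Rap1, from 33.5 ± 0.676 to 43.9 ± 3.97 CPM (n = 3, SD, with adjusted p = 0.00457 and 0.0106 by edgeR). The related SIPA1L1 had a log2 fold change of -0.32 (adjusted p = 0.0223 by edgeR), a call lost without shCTR 2, shNSD2 2 or shNSD2 3. With GC content and gene length corrected for, SHARPIN, SIPA1 and SIPA1L1 lost their calls (edgeR adjusted p = 0.0983, 0.107 and 0.260).

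Of 14 tested genes of integrin trafficking 3 rose and 2 fell (median 0.04), or 35.7% against 30.7% of all genes tested. NRP1, a semaphorin and growth factor co-receptor that also bears on integrin traffic, fell from 105 ± 31.1 to 31.0 ± 2.0 CPM (n = 3, SD, with adjusted p = 4.43e-04 by edgeR). RAB25, a GTPase of endosomal recycling, rose from 32.8 ± 5.94 to 54.2 ± 3.42 CPM (n = 3, SD, with adjusted p = 0.00306 by edgeR). RAB11A (0.44) and HAX1 (0.41, named after its value was seen) were the others that rose, and RAB11FIP1 the other that fell (-0.39). RAB11A and RAB11FIP1 lost their calls without shCTR 2, shNSD2 2 or shNSD2 3. Without shCTR 4 the counts were 6 higher and 3 lower, and without shCTR 2, shNSD2 2 or shNSD2 3 they were 1 and 1.

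Of 15 tested partners and proteases of the fibronectin matrix, 1 rose and 3 fell (median -0.31), or 26.7% against 30.7% of all genes. DPP4, a cell-surface peptidase that binds fibronectin, fell from 474 ± 88.0 to 306 ± 28.3 CPM, and LTBP1, a matrix protein that stores latent TGF-beta, from 6.82 ± 2.02 to 3.66 ± 0.731 CPM (n = 3, SD, with adjusted p = 0.00862 and 0.0173 by edgeR). CYR61, a matrix-associated integrin ligand named after its value was seen, was the third (-0.77), and TIMP2, an inhibitor of matrix metalloproteinases, was the 1 that rose (0.31). The call of TIMP2 was lost by DESeq2 (adjusted p = 0.0562) and without shCTR 1, shCTR 2, shNSD2 1 or shNSD2 2, and that of LTBP1 without shCTR 2, shNSD2 2 or shNSD2 3. Without shCTR 4 the counts were 2 higher and 7 lower, without shNSD2 2 they were 0 and 1 by edgeR, and without shNSD2 3 they were 1 and 1.

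Other ligands with an RGD site fell in 4 of 7 tested genes and rose in 0 by edgeR (2 were higher at an unadjusted p under 0.05, and DESeq2 called 0), with a median of -0.30. The share called was 57.1%, all lower, against 30.7% of all genes tested (15.2% lower). THBS1 fell from 588 ± 304 to 93.7 ± 30.1 CPM (n = 3, SD, with adjusted p = 0.00117 by edgeR), with 914, 536 and 313 CPM in shCTR and 62.6, 123 and 95.9 CPM in shNSD2. TNC, the tenascin C gene, fell from 1.75 ± 1.09 to 0.320 ± 0.0834 CPM (n = 3, SD, with adjusted p = 0.00924 by edgeR), and FBN1 and ADAM15, named after their values were seen, were the others. Without shNSD2 1 the list had 2 lower genes.

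Of the laminin and hemidesmosome partners, 3 of 10 tested fell and 0 rose by edgeR (0 were higher at an unadjusted p under 0.05, and DESeq2 called 0), with a median of -0.33. The share called was 30%, all lower, near the 30.7% of all genes tested (15.2% lower). LAMC1, the gamma 1 chain of most laminins, fell from 1908 ± 613 to 715 ± 98.8 CPM (n = 3, SD, with adjusted p = 0.00186 by edgeR), with 2573, 1787 and 1365 CPM in shCTR and 615, 813 and 717 CPM in shNSD2. DST, a hemidesmosomal plakin gene named after its value was seen, fell from 25.2 ± 5.28 to 16.2 ± 1.81 CPM (n = 3, SD, with adjusted p = 0.0116 by edgeR). The counts were 7 lower without shCTR 4 and 2 lower without shNSD2 3.

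**Figure D5:**
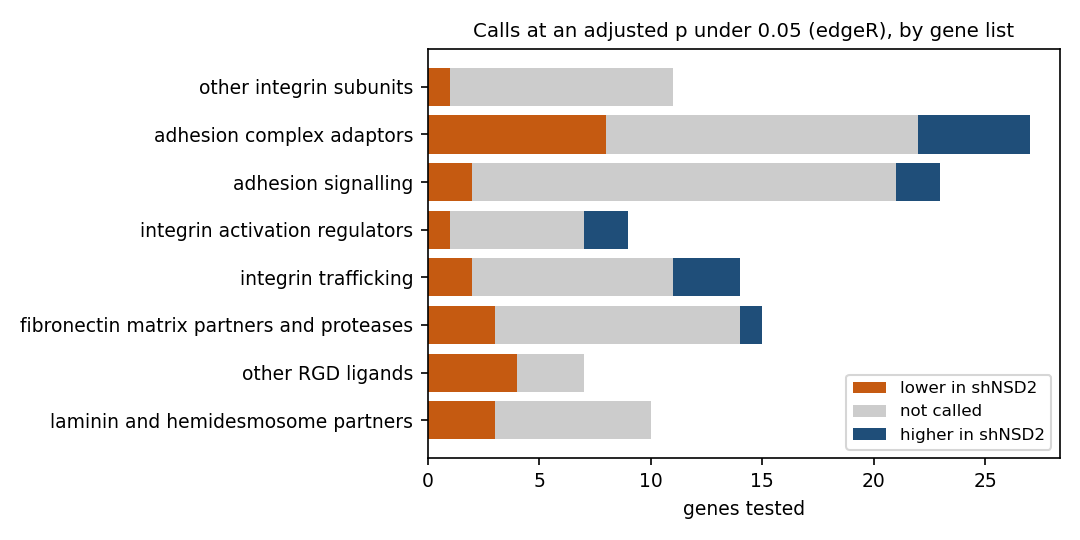
Number of tested genes in each of the 8 lists that fell, were not called or rose in shNSD2 at an edgeR adjusted p under 0.05. Adaptors show 8 lower and 5 higher of 27, RGD ligands 4 lower of 7, and the other integrin subunits 1 lower of 11. Among all genes tested 30.7% were called.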

How the data were processed

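The authors deposited raw read counts per gene for 6 libraries, with no normalization, judged from whole numbers. CASAVA 1.8.2, STAR 2.6.0a and GRCh38 are named in the submitters' processing notes. A KAPA mRNA HyperPrep kit was used, per the labels' protocols. For the counting program, annotation and strand setting nothing is stated in the labels or file header. Reads of overlapping antisense genes, or of same-strand genes that share exons, therefore cannot be told apart.

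Counts were tested with edgeR 4.0.16 (R 4.3.3): filterByExpr, TMM and the quasi-likelihood test, without covariate, with Benjamini-Hochberg adjustment over 17160 genes and a threshold of 0.05. SEs come from the log2 fold change and F. Coordinates and lengths came from GENCODE 29, in which 31313 of 31413 identifiers were found. Positions between groups and profile likeness used log2(CPM + 0.5). On simulated counts of 17160 genes (16873 in the fit), the test recovered 57% of 100 genes changed 1.5-fold and 81% of 100 changed 2-fold, with 11 false among 149 calls. The simulation changed 200 genes, drew each gene separately and had no library that stood apart as shCTR 4 did. In the real data 30.7% of genes were called, so these rates need not hold for them.

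The members and lists were chosen with earlier results of these data known. Named genes are the members, NSD2, up to 2 higher and 2 lower called genes of smallest p per list, THBS1 and the 6 profiles nearest FN1. Alternatives were DESeq2 1.42.0 (size factors, Wald test), plain library size, other low-count filters, the replicate number as a block and each library left out. A correction for GC content and length, and principal transcript lengths, were added after the data were seen. The values of 1 gene of the laminin list are not reported here.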

Additional observations from a re-analysis of the deposited data

How the results depend on the processing

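Each result was recomputed under 13 other settings. Among the recomputed log2 fold changes 0 were reversed, 54 lost their call and 1 gained a call. Counts of called genes have no direction to reverse, and 71 recomputed counts moved from the main value by more than a set margin. The log2 fold change of FN1 lay between -3.45 (replicate block) and -2.73 (GC and length correction). That correction moved ITGAV from -1.04 to -0.82, ITGB1 from -0.94 to -0.78, ITGA2 from -0.77 to -0.57 and NSD2 from -1.30 to -0.997. GC content was 38.3% to 42.2% for FN1, ITGAV, ITGB1 and ITGA2, and 61.3% and 63.7% for ITGA3 and ITGB4. ITGA6, at 42.9%, was not lower in shNSD2, and ITGB5, at 54.3%, was. The part of GC content in these differences was not tested. The counts of 5 lower and 2 higher members were the same under the 7 settings that left out no library. Of these, the replicate block took its difference from the libraries numbered 1 and 2 only. With the GC and length correction the log2 fold change was 0.33 for ITGA6, then under the threshold, and 0.55 for ITGB4, then not under it; neither is a test of a member. The same correction gave 5 lower adaptors, 5 higher and 1 lower signalling genes, 1 higher and 0 lower activation regulators (edgeR), 2 higher RGD ligands and 1 higher laminin partner. Fibronectin partners had 0 higher genes by the DESeq2 Wald test and 0 by edgeR without the low-count filter.

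Only the numbers 1 and 2 occur in both groups, and nothing ties a number to a shared culture. Deviations from the group means correlated at 0.0441 for number 1 and -0.176 for number 2. Between libraries of unlike number the correlations ran from -0.432 (shCTR 2 with shNSD2 3) to 0.478 (shCTR 2 with shNSD2 1). In the replicate block shCTR 4 and shNSD2 3 each had a number of their own and did not inform the difference. It called 6243 genes, against 5263 in the fit that used all libraries, so these counts do not rest on the same libraries. It gave 1 higher among other integrin subunits, 6 higher in trafficking, 2 higher among fibronectin partners, 1 higher RGD ligand and 6 lower laminin partners.

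With a library left out, 1116 to 4251 genes were higher and 1320 to 4011 lower, the highest counts without shCTR 4. Between 0 and 2 members were higher (0 by edgeR without shCTR 2, shNSD2 1 or shNSD2 3, where 2, 0 and 3 had an unadjusted p under 0.05) and 3 to 5 lower. The log2 fold change ranged from -0.98 to -0.61 for ITGA2, 0.30 to 0.58 for ITGA3, 0.47 to 0.81 for ITGB4 and -0.40 to -0.29 for ITGB5. Called genes numbered 4 to 10 lower adaptors, 0 to 3 higher and 0 to 6 lower signalling genes, 0 to 1 lower activation regulators, 1 to 6 higher and 1 to 3 lower trafficking genes, 0 to 2 higher and 1 to 7 lower fibronectin partners, 2 to 7 lower laminin partners, 0 to 2 higher other integrin subunits, and 0 to 1 higher and 2 to 4 lower RGD ligands. The cause of these shifts was not tested. ITGB3 had 0 or 1 count per library, and at this depth a low level and absence of its transcript cannot be told apart. A protein-coding gene on the same strand, AC068234.1, shares exons with ITGB3 and had no row. How shared reads were counted is not stated, and their part in the low ITGB3 count was not tested.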
